A study of Arabidopsis thaliana with 18 samples.

Results

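The nuclear genes for subunits of photosystem I, photosystem II and the carriers between and beyond them were followed in 2 natural accessions of Arabidopsis thaliana, an ecotype from Italy (IT) and another from Sweden (SW). The set is a list of loci chosen for the subunits they encode, by a rule that uses no measured value, with earlier results of these data known, and holds 32 of the 33557 genes in the deposited table. It is made up of 12 photosystem I genes, 10 photosystem II genes, 6 genes of electron carriers, 2 genes of cyclic electron flow and 2 genes of the chloroplast ATP synthase. Whole aerial parts were sequenced in 6 groups of 3 samples: each ecotype warm at 22 °C, and following either 1 or 2 weeks of cold at 4 °C. The labels give no transgene, mutation or chemical treatment for any group, and do not give the number of plants behind a sample. Plants grew on soil for 18 days in a 12 h photoperiod at 100 to 120 µmol m-2 s-1, the cold plants were then held at about 35 µmol m-2 s-1, and all were harvested 4 h after lights on. Cold plants were thus also older and in dimmer light than warm plants, and these effects cannot be told apart.

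Linear electron flow runs from water, split at photosystem II, through the cytochrome b6f complex and plastocyanin to photosystem I, and on through ferredoxin and ferredoxin-NADP reductase (FNR) to NADPH. A second route, cyclic flow, returns electrons from ferredoxin to the chain, and the proton gradient that both routes build drives the ATP synthase. The reaction-centre cores are made in the chloroplast, whereas the subunits described here are made from nuclear genes and imported. In leaves their transcripts are among the most abundant of all nuclear messages, and chilling in light is known to unbalance light capture and the use of its products.

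Levels are given in FPKM (fragments per kilobase of transcript, relative to all mapped fragments), a unit per length in which genes can be compared. The authors' table holds 1 value for each gene and group, with no values of single libraries, so no value has an error or an n of its own here. Depth is not known, and no difference could be tested or held against replicate spread. Values are compared by the log2 ratio of FPKM + 1, and calls of higher and lower need at least 2-fold (a log2 ratio of at least 1, or at most -1). The 1 week and 2 week comparisons of an ecotype share the same warm value. RNA came from whole shoots, so fewer photosynthetic cells and less RNA per cell cannot be told apart.

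The FPKM of all genes summed to between 823963 and 1034038 per group, and 19639 genes reached 1 FPKM in at least 1 group, all 32 subunit genes among them. None of the 32 was listed at 0. Of the leaf markers, LHCA1, a light-harvesting gene of photosystem I, stood between 2713 and 5695 FPKM, while RBCS1A (AT1G67090) and CAB3 (AT1G29910) were listed at 0 in all 6 groups and were treated as missing. The 7 root markers summed to between 1.38 and 2.53 FPKM, and 1 of them reached 1 FPKM in any group. The 4 epidermis markers summed to between 919.7 and 1495 FPKM and the 4 vein markers to between 87.9 and 131 FPKM. In IT after 2 weeks the 4 flower markers summed to 5.87 FPKM, against 0.366 to 0.831 FPKM in the other 5 groups. There the 2 senescence markers summed to 292 FPKM, against 137 in IT warm, 167 in IT after 1 week, and 65.7, 67.9 and 18.6 in SW warm and after 1 and 2 weeks. SAG13 made up most of each sum, and SAG12 reached at most 1.76 FPKM, in IT after 2 weeks. In SW the 2 went opposite ways, SAG13 from 65.7 FPKM warm to 17.7 after 2 weeks and SAG12 from 0.008 to 0.89.

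The transcripts lie on all 5 nuclear chromosomes, 13 on chromosome 1, 4 on chromosome 2, 3 on chromosome 3, 9 on chromosome 4 and 3 on chromosome 5. For 5 genes, the 250 bases just upstream of the annotated start are printed, because the paralog and ferredoxin results below turn on these genes (RefSeq annotation of TAIR10.1, 5′ to 3′ on the gene's strand). Capitals mark a G-box (CACGTG) or an I-box (GATAAG), hexamers known from light-regulated promoters.
PSAD1: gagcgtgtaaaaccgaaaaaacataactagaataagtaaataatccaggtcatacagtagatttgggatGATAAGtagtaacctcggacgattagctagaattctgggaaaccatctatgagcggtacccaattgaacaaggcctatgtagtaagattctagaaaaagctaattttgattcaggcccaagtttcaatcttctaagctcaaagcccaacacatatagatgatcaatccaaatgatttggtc
PSAD2: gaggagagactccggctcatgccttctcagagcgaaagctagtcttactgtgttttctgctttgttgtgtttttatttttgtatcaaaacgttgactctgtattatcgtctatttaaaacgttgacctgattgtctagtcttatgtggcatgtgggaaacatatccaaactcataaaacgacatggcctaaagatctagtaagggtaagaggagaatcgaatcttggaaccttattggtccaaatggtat
PSAE1: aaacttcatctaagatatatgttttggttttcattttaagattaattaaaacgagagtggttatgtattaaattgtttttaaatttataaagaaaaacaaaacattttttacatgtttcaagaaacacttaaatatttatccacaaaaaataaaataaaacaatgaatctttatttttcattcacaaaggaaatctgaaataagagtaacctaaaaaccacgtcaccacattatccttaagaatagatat
PSAE2: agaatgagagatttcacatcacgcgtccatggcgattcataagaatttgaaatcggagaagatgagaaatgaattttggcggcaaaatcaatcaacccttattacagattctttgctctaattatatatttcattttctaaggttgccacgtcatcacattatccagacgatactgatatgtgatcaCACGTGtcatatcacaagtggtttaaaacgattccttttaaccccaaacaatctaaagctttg
FD2: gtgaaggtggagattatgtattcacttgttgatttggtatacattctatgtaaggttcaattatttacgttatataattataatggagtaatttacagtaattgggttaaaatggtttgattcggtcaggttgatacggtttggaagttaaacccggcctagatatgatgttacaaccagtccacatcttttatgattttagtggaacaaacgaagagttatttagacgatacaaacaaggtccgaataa
They lie at chr4:1230165-1230414 (PSAD1, minus strand), chr1:754263-754512 (PSAD2, minus strand), chr4:14204062-14204311 (PSAE1, minus strand), chr2:8736484-8736733 (PSAE2, plus strand) and chr1:22444057-22444306 (FD2, plus strand). The I-box of PSAD1 lies 181 to 176 bases before the annotated start, and the palindromic G-box of PSAE2 lies 63 to 58 bases before it. The windows of PSAD2, PSAE1 and PSAE2 also hold part of a neighbouring gene.

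In the warm, 24 of the 32 transcripts in IT and 26 in SW stood above 1000 FPKM, and in the cold the set made up a smaller share of all FPKM. The 32 values summed to 9.48% of all FPKM in IT warm, 4.39% after 1 week and 4.07% after 2 weeks. In SW the same sums were 9.22%, 4.76% and 5.40%. The sum of all FPKM was itself higher in the cold than in the warm in both ecotypes. After 1 and 2 weeks the summed FPKM of the 32 came to 56.9% and 47.5% of warm in IT, and to 57.4% and 67.1% in SW. Both warm values lay above all 4 cold values for 26 of the 32 genes, against 22.8% of all genes. The 6 others were PSAE2, PSBO2, PETC, FD2, FNR2 and PGR5. Across members, the warm levels in IT ran from 178 FPKM for PGR5 to 5945 FPKM for PSBR, a range of 33.4-fold. The lowest value of a gene was that of IT after 2 weeks for 26 of 32, against 12.2% of all genes, and for 26, 28 and 18 by upper-quartile, reference-gene and nuclear-sum scaling.

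**Figure D1:**
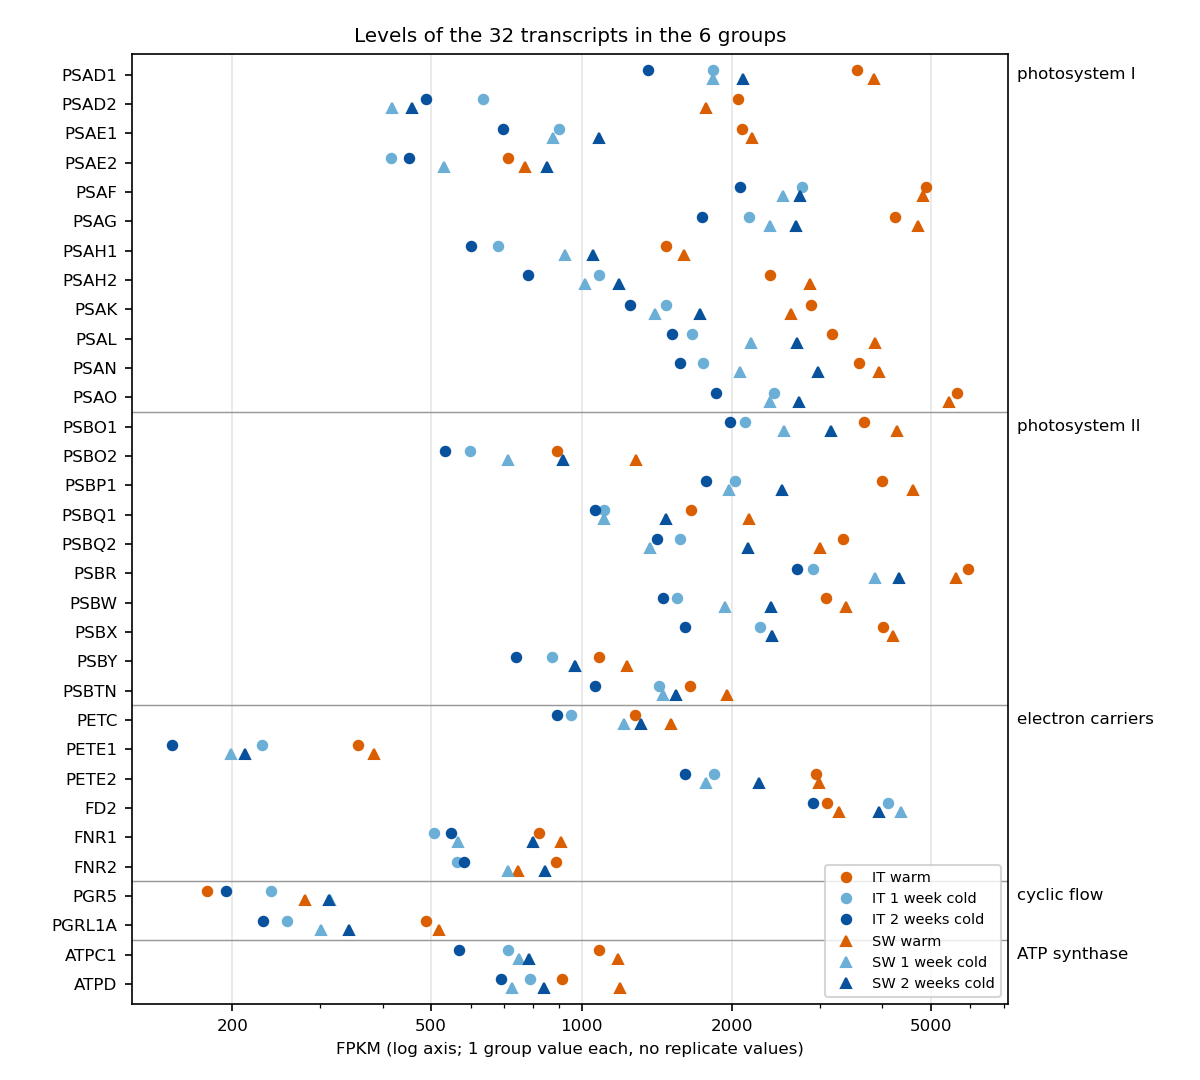
FPKM (log axis) of each of the 32 transcripts in the 6 groups, 1 point per group, circles for IT and triangles for SW, grouped by complex. The orange warm points lie to the right of all 4 blue cold points in 26 rows, and the dark blue circles (IT, 2 weeks) are leftmost in 26 rows.

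After 1 week in the cold, IT had 8 of the 32 transcripts at least 2-fold lower (7.91% of all genes were) and SW had 7 (6.2% of all genes). After 2 weeks the count was 18 in IT (6.43% of all genes) and 3 in SW (7.47% of all genes). None of the 32 was 2-fold higher in any of these comparisons (10%, 7.81%, 7.03% and 6.54% of all genes were, in the same order). Those below warm at all were 30, 30, 31 and 28 in that order (50.1%, 48.1%, 47.1% and 49% of all genes). The median log2 ratio of the 32 was -0.82 in IT and -0.80 in SW after 1 week, and -1.08 in IT and -0.51 in SW after 2 weeks, beside all-gene medians of at most 0.04. Among genes of at least 100 FPKM in a group, 8.94%, 7.66%, 8.99% and 8.8% were 2-fold lower in the same order, and 29.3%, 18.5%, 20.7% and 17% were 2-fold higher. Their medians were all above 0, between 0.35 and 0.45. A gene enters this set by its value in any of the 6 groups, also by a cold value alone, so the set is not chosen apart from these ratios.

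The counts depend on how the groups are scaled to each other. With FPKM scaled to 11 reference genes, the counts of 2-fold lower transcripts were 15 in IT and 17 in SW after 1 week, and 21 and 10 after 2 weeks. As deposited, those 11 genes had median log2 ratios to warm of 0.09 and 0.22 in IT and 0.20 and 0.29 in SW, after 1 and 2 weeks. Above warm were 7, 7, 7 and 8 of them in that order, and AT1G07940 was 2-fold higher in IT after 1 week. Scaled to the sum of nuclear genes alone, they were 19 and 14 after 1 week, and 21 and 10 after 2 weeks. Against the median of genes of at least 100 FPKM, the members' median lay at -1.27 in IT and -1.15 in SW after 1 week, and at -1.44 and -0.89 after 2 weeks. Against the median of all genes it lay at -0.82, -0.83, -1.12 and -0.52 in the same order. The former is no neutral baseline, as its genes could enter through a cold group alone. The balance of calls over all genes moved with the scaling too. For IT after 1 week it was 10.0% higher and 7.91% lower as deposited, and 6.43% and 13.4% by the nuclear sum. In the same way IT after 2 weeks went from 7.03% and 6.43% to 4.54% and 9.36% by the reference genes (5.35% and 8.52% by the nuclear sum). SW after 1 week went from 7.81% and 6.20% to 5.68% and 9.0% (6.14% and 8.14%), and SW after 2 weeks from 6.54% and 7.47% to 3.72% and 11.4% (4.43% and 10.0%).

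**Figure D2:**
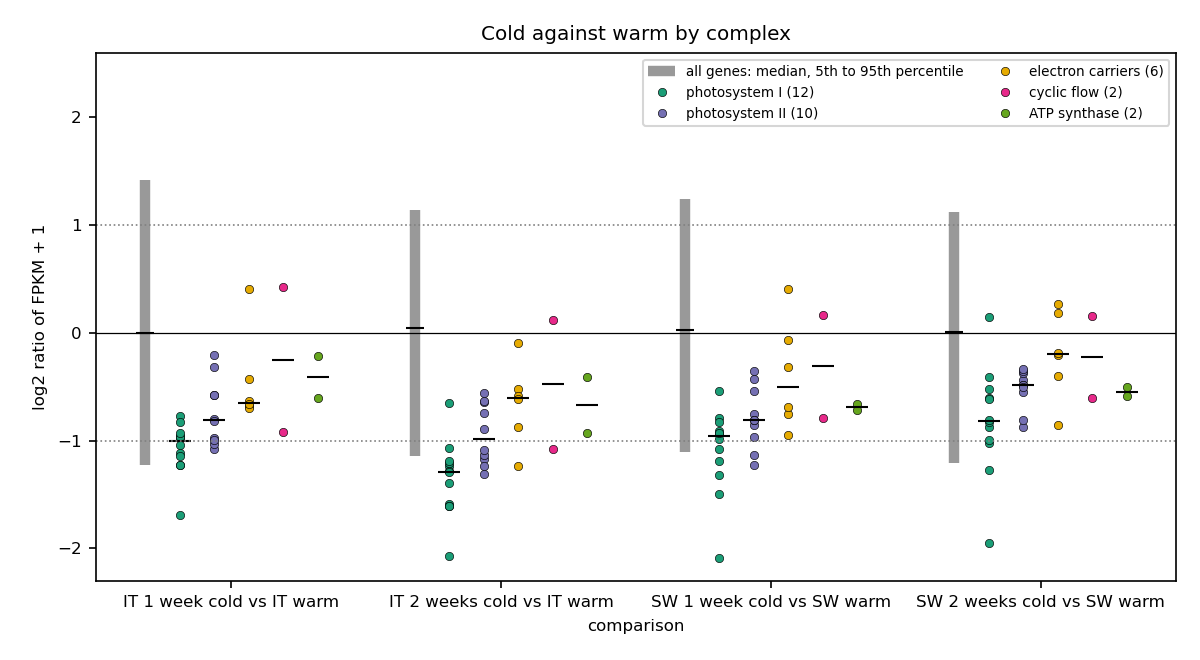
Log2 ratios of FPKM + 1, cold against warm, for the genes of each complex (points, with a black bar at the median) beside all genes (grey bar from the 5th to the 95th percentile, black bar at the median). Dotted lines mark the 2-fold limits. Photosystem I lies lowest in each comparison, with a median of -1.29 in IT after 2 weeks, and the electron carriers lie closer to 0.

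Photosystem I passes electrons from plastocyanin to ferredoxin, and its nuclear subunits had the lowest ratios of cold to warm in the set. Their summed FPKM came to 48.4% of warm in IT and 48.2% in SW after 1 week. After 2 weeks the sum was 39.2% of warm in IT and 57.9% in SW. The median log2 ratio of the 12 was -1.01 and -0.96 after 1 week in IT and SW, and -1.29 and -0.81 after 2 weeks. At least 2-fold lower were 6 of 12 in IT and 5 of 12 in SW after 1 week, and 11 of 12 in IT and 3 of 12 in SW after 2 weeks. The 11 were all but PSAE2.

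PSAD and PSAE sit on the stromal face of photosystem I and form the docking site of ferredoxin, and each is encoded by a pair of paralogs. PSAD1 (AT4G02770) had 3568, 1837 and 1360 FPKM in IT warm, after 1 week and after 2 weeks, and 3858, 1833 and 2109 FPKM in SW. PSAD2 (AT1G03130) had 2056, 635 and 488 FPKM in IT, and 1778, 417 and 459 FPKM in SW. All 4 cold values of both genes lay below both warm values. The ratio of PSAD2 was the lowest of the 32 in each of the 4 cold comparisons, with log2 ratios of -1.69 and -2.07 in IT and -2.09 and -1.95 in SW. PSAD1, with -0.96 and -1.39 in IT and -1.07 and -0.87 in SW, was lower to a lesser degree. The share of PSAD2 in the summed FPKM of the pair was thus smaller in the cold, at 36.6%, 25.7% and 26.4% in IT and 31.5%, 18.5% and 17.9% in SW.

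PSAE1 (AT4G28750) had 2098, 900 and 696 FPKM in IT and 2197, 879 and 1084 FPKM in SW, in the same order of groups. PSAE2 (AT2G20260) had 711, 416 and 452 FPKM in IT and 769, 530 and 854 FPKM in SW. PSAE1 was below its warm value in all cold groups, whereas PSAE2 in SW after 2 weeks stood above both warm values. The log2 ratios against warm were -1.22 and -1.59 in IT and -1.32 and -1.02 in SW for PSAE1, and -0.77 and -0.65 in IT and -0.54 and 0.15 in SW for PSAE2. That last value was -0.14 by the reference genes and -0.05 by the nuclear sum. The share of PSAE2 in the pair was larger in the cold in both ecotypes, 25.3%, 31.6% and 39.4% in IT and 25.9%, 37.6% and 44.1% in SW, so the shares of PSAD2 and PSAE2 differed from warm in opposite directions. The sum of both PSAE genes still stood at 40.9% of warm in IT and 65.3% in SW after 2 weeks. Beside PSAE2, the overlapping gene AT2G20270 on the opposite strand reached at most 24.3% of its level, and the strand use of the counting is not given in the sources used here.

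PSAH lies where light-harvesting complex II docks during state transitions. PSAH1 (AT3G16140) had 1476, 679 and 602 FPKM in IT and 1607, 928 and 1056 FPKM in SW. PSAH2 (AT1G52230) had 2382, 1082 and 781 FPKM in IT and 2863, 1016 and 1187 FPKM in SW. After 1 week the share of PSAH2 in the pair was 52.3% in SW, from 64.0% warm, and 61.4% in IT, from 61.7%. After 2 weeks it was 52.9% in SW and 56.5% in IT. The log2 ratio of PSAH2 after 1 week was -1.14 in IT and -1.49 in SW, and that of PSAH1 was -1.12 and -0.79.

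The other photosystem I subunits are single genes here. PSAF, which helps to bind plastocyanin, had 4899, 2760 and 2077 FPKM in IT and 4836, 2528 and 2735 in SW. PSAN, a lumenal subunit at the same site, had 3594, 1751 and 1577 FPKM in IT and 2980 FPKM in SW after 2 weeks, from 3947 warm and 2073 after 1 week. PSAO, near the docking site of light-harvesting complex II, had 5658, 2424 and 1855 FPKM in IT and 5450, 2385 and 2729 in SW. In all 3 the IT value after 2 weeks was the lowest of the 6 groups. PSAG and PSAK are related membrane subunits at the antenna side. PSAG had 4253, 2165 and 1747 FPKM in IT and 4707, 2385 and 2691 FPKM in SW, and PSAK had 2878, 1477 and 1248 FPKM in IT and 2631, 1402 and 1724 FPKM in SW. PSAL, which takes part in the docking of light-harvesting complex II, had 3167, 1667 and 1515 FPKM in IT and 3871, 2180 and 2697 FPKM in SW. In IT all 3 were 2-fold lower after 2 weeks, with log2 ratios of -1.28, -1.2 and -1.06, and in SW none was, with -0.81, -0.61 and -0.52.

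**Figure D3:**
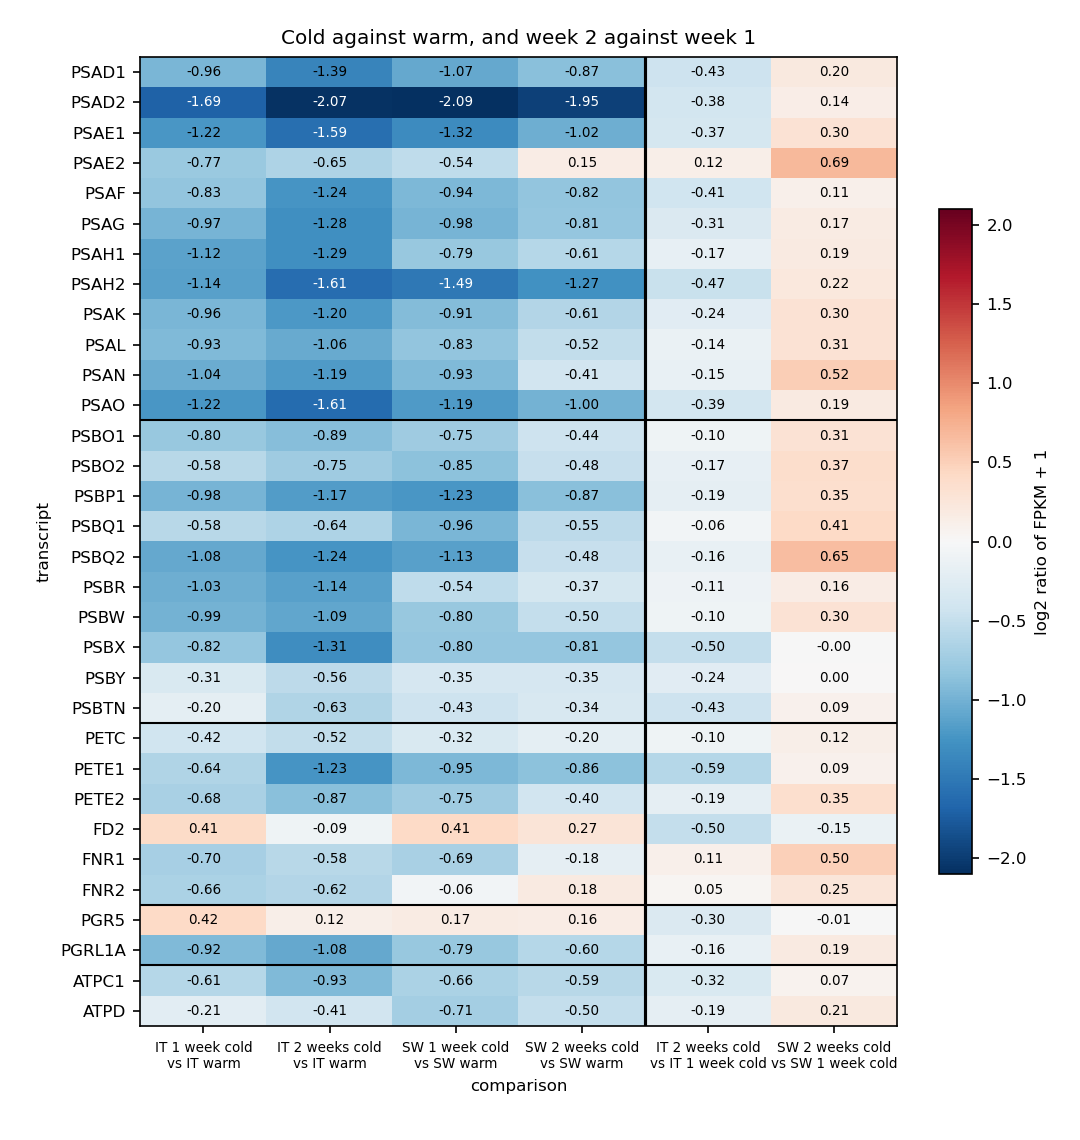
Log2 ratios of FPKM + 1 for each transcript, cold against warm (left 4 columns) and 2 weeks against 1 week of cold (right 2 columns), blue for lower and red for higher. PSAD2 has the darkest cells, down to -2.09, and the right 2 columns have opposite colours in 26 rows.

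Photosystem II splits water, and its nuclear subunits were lower in the cold too, with sums closer to warm than those of photosystem I. Their summed FPKM came to 56.2% of warm in IT and 57.8% in SW after 1 week, and to 48.9% in IT and 68.9% in SW after 2 weeks. Of the 10 genes, 2 were 2-fold lower after 1 week in each ecotype (PSBQ2 and PSBR in IT, PSBP1 and PSBQ2 in SW). After 2 weeks 5 were in IT (PSBP1, PSBQ2, PSBR, PSBW and PSBX) and none in SW. Over all genes 7.91% in IT and 6.2% in SW were 2-fold lower after 1 week, and 6.43% and 7.47% after 2 weeks. None of 10 lies near that last share and is no result about these genes in SW.

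The lumenal extrinsic proteins PSBO, PSBP and PSBQ shield and stabilise the manganese cluster that splits water. PSBO1 (AT5G66570), the main form of PSBO, had 3680, 2120 and 1984 FPKM in IT and 4273, 2543 and 3152 FPKM in SW. PSBO2 (AT3G50820) had 894, 598 and 533 FPKM in IT and 1286, 711 and 918 FPKM in SW, and held 19.5% to 23.1% of the pair in all 6 groups. PSBO1 and PSBO2 were thus lower by similar factors, unlike the pairs of PSAD and PSAE. PSBP1 (AT1G06680) had 3993, 2028 and 1773 FPKM in IT and 4615, 1969 and 2516 FPKM in SW. PSBQ2 (AT4G05180) had 3335, 1577 and 1413 FPKM in IT and 3008, 1371 and 2152 FPKM in SW, so that in SW the value after 2 weeks lay between those after 1 week and warm. PSBQ1 (AT4G21280) had 1657, 1110 and 1062 FPKM in IT and 2162, 1109 and 1477 FPKM in SW. The share of PSBQ2 in the pair was 66.8%, 58.7% and 57.1% in IT and 58.2%, 55.3% and 59.3% in SW.

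PSBR, a small subunit needed for stable binding of PSBP, was the most abundant of the 32 in both warm groups, with 5945 FPKM in IT and 5611 FPKM in SW. After 1 and 2 weeks it had 2911 and 2703 FPKM in IT and 3870 and 4331 FPKM in SW, where it was 2-fold lower at no time (log2 ratios -0.54 and -0.37, against -1.03 and -1.14 in IT). PSBW, PSBX, PSBY and PSBTN are further small subunits. PSBX had 4009, 2277 and 1614 FPKM in IT, and 4197, 2403 and 2401 FPKM in SW, where the values after 1 and 2 weeks were nearly equal. PSBW had 3090, 1556 and 1456 FPKM in IT and 3382, 1938 and 2391 FPKM in SW. PSBY had 1086, 874 and 738 FPKM in IT and 1236, 969 and 969.7 FPKM in SW. PSBTN had 1648, 1431 and 1063 FPKM in IT and 1957, 1453 and 1547 FPKM in SW. PSBY and PSBTN were nearer to warm than the other 8 genes of photosystem II in each ecotype and at each time, with log2 ratios between -0.20 and -0.63.

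Of the 6 electron carrier genes in the set, FD2 stood above warm after 1 week and the others below it. Summed FPKM of the 6 genes came to 87.3% of warm in IT and 90.0% in SW after 1 week, and to 71.2% and 95.6% after 2 weeks. FD2 carries much of those sums. FD2 (AT1G60950), the main leaf ferredoxin, had 3095, 4112 and 2907 FPKM in IT and 3280, 4365 and 3945 FPKM in SW. Both values after 1 week lay above both warm values, and IT after 2 weeks lay below them. The log2 ratios were 0.41 and -0.09 in IT and 0.41 and 0.27 in SW, and the last was -0.02 by the reference genes. FD2 was the most abundant of the 32 transcripts in both groups after 1 week and in IT after 2 weeks. The other leaf ferredoxin gene, FD1 (AT1G10960), which was added after its values were seen, had 399.8, 180.1 and 131.1 FPKM in IT and 483, 136 and 109 FPKM in SW. FD2 thus held 88.6%, 95.8% and 95.7% of the pair in IT and 87.2%, 97% and 97.3% in SW.

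**Figure D4:**
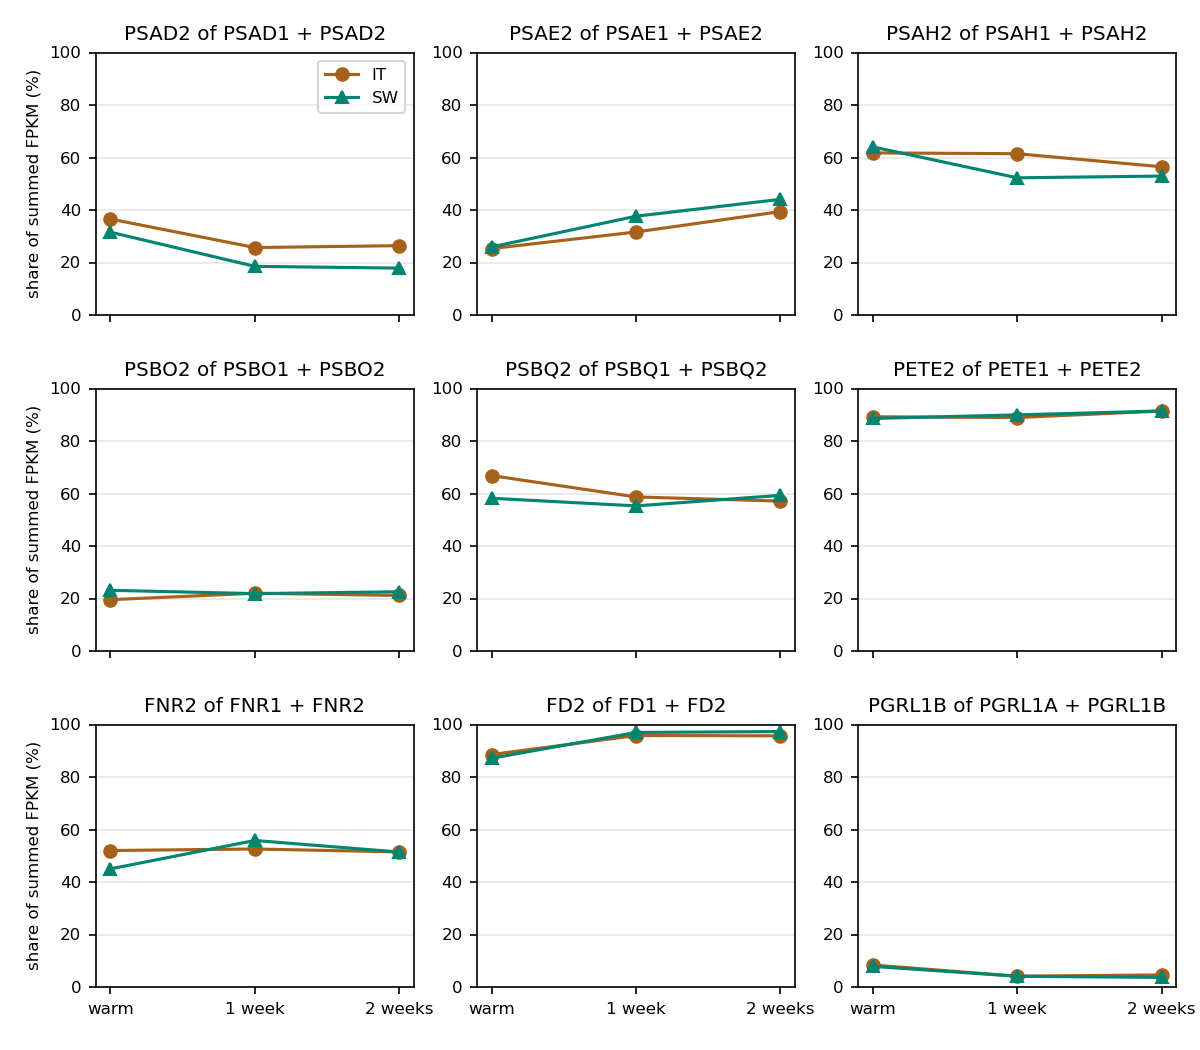
Share (%) of the named paralog in the summed FPKM of its pair, in the warm and after 1 and 2 weeks of cold, for IT (circles) and SW (triangles). In both ecotypes the share of PSAD2 is smaller at both cold times than in the warm and that of PSAE2 larger, reaching 17.9% and 44.1% in SW after 2 weeks, while PSBO2 stays between 19.5% and 23.1%.

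FNR passes electrons from ferredoxin to NADP, and its leaf forms FNR1 and FNR2 act as a pair at the thylakoid. FNR1 (AT5G66190) had 823, 508 and 548 FPKM in IT and 909.8, 565 and 800.2 FPKM in SW. FNR2 (AT1G20020) had 891, 563 and 581 FPKM in IT and 745, 713 and 847 FPKM in SW. In IT both stood below warm at both times, while in SW FNR2 was within 1.5-fold of warm throughout, with log2 ratios of -0.06 and 0.18 (the latter -0.11 by the reference genes and -0.01 by the nuclear sum). Together they came to 65.9% of warm in IT and 99.5% in SW after 2 weeks.

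Plastocyanin, the copper protein of the lumen, comes mostly from PETE2 (AT1G20340). That gene had 2953, 1840 and 1610 FPKM in IT and 2987, 1777 and 2265 FPKM in SW. PETE1 (AT1G76100) had 356, 229 and 151 FPKM in IT and 385, 199 and 212 FPKM in SW, and was 2-fold lower in IT after 2 weeks, with a log2 ratio of -1.23. PETE2 held between 88.6% and 91.5% of the pair in all 6 groups. PETC (AT4G03280), the Rieske iron-sulfur protein of the cytochrome b6f complex, had 1279, 953 and 892 FPKM in IT and 1514, 1215 and 1316 FPKM in SW, with log2 ratios from -0.20 to -0.52.

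PGR5 and PGRL1A belong to the main route of cyclic flow, and stood on opposite sides of warm. PGR5 (AT2G05620) had 178, 239 and 194 FPKM in IT and 279, 314 and 312 FPKM in SW. Each cold value was above the warm value of its ecotype, with log2 ratios of 0.42 and 0.12 in IT and 0.17 and 0.16 in SW. By the reference genes these were above 0 in IT after 1 week alone, with -0.09 in IT after 2 weeks and -0.04 and -0.13 in SW, and by the nuclear sum both values after 2 weeks were below 0 (-0.02 in IT and -0.03 in SW). PGRL1A (AT4G22890), the membrane partner of PGR5, had 488, 257 and 231 FPKM in IT and 519, 300.2 and 342 FPKM in SW, all 4 cold values below both warm values. Its paralog PGRL1B, chosen after its values were seen, had 44.6, 11 and 11.2 FPKM in IT and 44.3, 12.8 and 13 FPKM in SW, with log2 ratios from -1.70 to -1.92.

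ATPC1 and ATPD encode the gamma and delta subunits of the catalytic part of the ATP synthase. ATPC1 (AT4G04640) had 1086, 713 and 569 FPKM in IT and 1181, 749 and 785 FPKM in SW. ATPD (AT4G09650) had 916, 789 and 691 FPKM in IT and 1192, 726 and 840.5 FPKM in SW. Both were below warm in all cold groups and neither was 2-fold lower. ATPD was the only member whose log2 ratio after 2 weeks was not higher in SW than in IT, at -0.50 against -0.41.

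In the second week of cold the values were mostly lower in IT and mostly higher in SW. From 1 to 2 weeks, 29 of the 32 transcripts were lower in IT (48.8% of all genes were) and 29 were higher in SW (49.4% of all genes), with medians of -0.19 and 0.21 on the log2 scale. Among genes of at least 100 FPKM, 65.6% were lower in IT, with a median of -0.14, and 54.4% were higher in SW, with a median of 0.03. The IT median of the members was thus -0.05 from that of abundant genes, and the SW median 0.18. Lower in IT and higher in SW at once were 26 of 32, against 21.2% of all genes and 33.9% of genes of at least 100 FPKM. Each single step was small, and none of the 32 differed 2-fold, whereas over all genes 1.81% did upward and 1.48% downward in IT, and 0.408% upward and 2.88% downward in SW. The strongest steps in SW were 0.69 for PSAE2, 0.65 for PSBQ2, 0.52 for PSAN and 0.50 for FNR1, and in IT -0.59 for PETE1 and -0.50 for both PSBX and FD2. Photosystem I sums went to 80.9% of their 1 week value in IT and to 120% in SW.

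The count of 26 was 28 by upper-quartile scaling, 25 by the reference genes and 18 by the nuclear sum, against 21.2%, 19.5% and 11.1% of all genes. By the nuclear sum the number lower in IT was 22 and their median -0.04, since that scaling also lifts the all-gene median of this step to 0.13. The number higher in SW was 31, 27 and 28 under the same 3 scalings. For IT from 1 to 2 weeks, the balance over all genes was 1.81% higher and 1.48% lower as deposited, 1.42% and 2.27% by the reference genes, and 2.63% and 0.871% by the nuclear sum. Markers of flowers and of senescence were highest in IT after 2 weeks, as given above, and their part in the result was not tested.

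**Figure D5:**
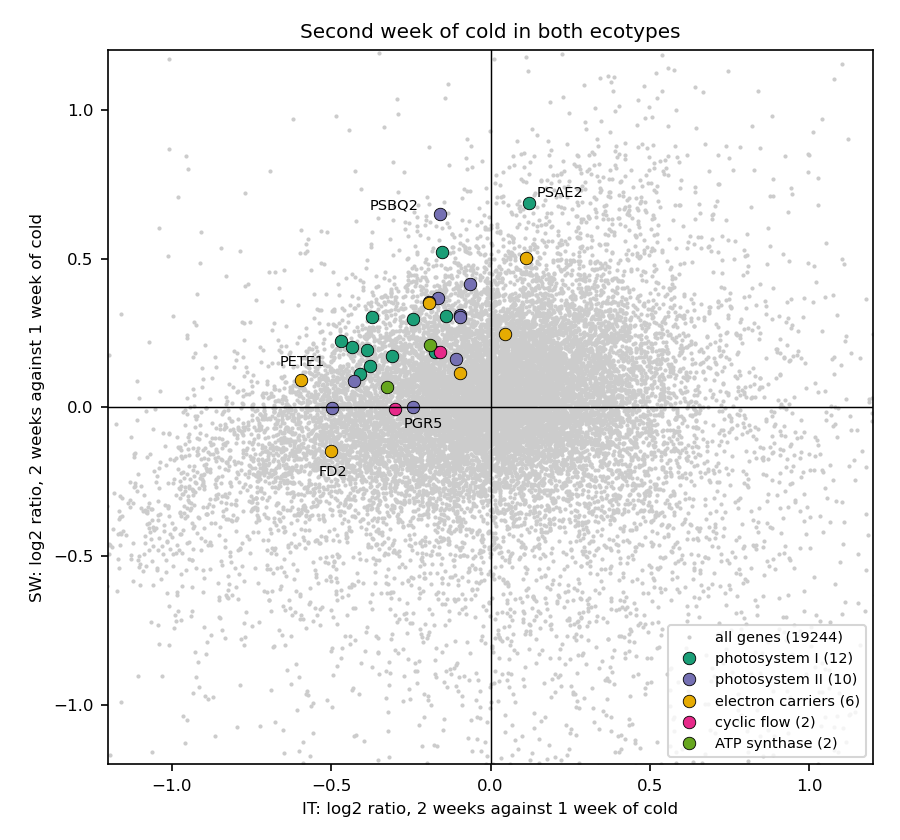
Log2 ratio of 2 weeks against 1 week of cold in IT (horizontal) and in SW (vertical), for all genes (grey, 19244 with a value in all 4 groups, some beyond the axes) and for the 32 transcripts coloured by complex. The transcripts crowd to the upper left of the crossing, where 26 of 32 lie.

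Between ecotypes the median of the subunits differed little until the second week, while some single genes differed more. In the warm, 25 of 32 were higher in SW than in IT (52.8% of all genes were), with a median log2 ratio of 0.12. Among genes of at least 100 FPKM 68.9% were, with a median of 0.18, and by the nuclear sum 14 of the 32 were. After 1 week 19 of 32 were higher in SW (51.2% of all genes and 51.9% of genes of at least 100 FPKM), with a median of 0.08. These small medians lay below 0 under 1 scaling each, at -0.010 in the warm by the nuclear sum and -0.023 after 1 week by the reference genes. After 2 weeks 31 of 32 were higher in SW (52.6% of all genes and 72.8% of genes of at least 100 FPKM), with a median of 0.56 beside 0.23 for genes of at least 100 FPKM, and the count was 31 under all 3 scalings. PSAD2, at -0.09, was the exception, with 459 FPKM in SW and 488 FPKM in IT. The widest gaps were 0.92 for both PSAE2 and PSAN, 0.83 for PSAL and 0.81 for PSAH1. None reached 2-fold in any of the 3 conditions. Over all genes, 2.68% were 2-fold higher and 4.22% lower in SW in the warm, 4.57% and 3.95% after 1 week, and 3.92% and 7.19% after 2 weeks. In the warm the widest gaps were 0.65 for PGR5 and 0.52 for PSBO2. After 1 week they were -0.61 for PSAD2 (417 FPKM in SW and 635 FPKM in IT), 0.45 for PSAH1 and 0.41 for PSBR.

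The difference of the cold responses, SW minus IT, had a median of -0.02 after 1 week, with 15 of 32 above 0 (50.6% of all genes and 39.4% of genes of at least 100 FPKM). By the reference genes 9 of 32 were above 0 and the median was -0.12, and by the nuclear sum 23 of 32 and 0.12, so no direction is given. Over all genes, 4.89% of these differences were 2-fold or more upward and 2.43% downward as deposited, 4.24% and 3.5% by the reference genes, and 6.19% and 1.60% by the nuclear sum. After 2 weeks the median difference was 0.46, with 31 of 32 above 0 (47.7% of all genes and 51% of genes of at least 100 FPKM), and 30 of 32 by the reference genes and by the nuclear sum. No member's difference was 2-fold at either time, while 3.07% of all genes had it upward and 4.21% downward after 2 weeks. The highest differences were 0.80 for FNR2 and PSAE2, 0.78 for PSAN and 0.76 for PSBR. Which subunits were lowest was nonetheless much alike in the ecotypes, which share no samples. Over the 32 genes, the ratio in IT and the ratio in SW had a Pearson correlation of 0.85 and a Spearman correlation of 0.73 after 1 week, and 0.87 and 0.85 after 2 weeks, beside 0.75 and 0.74, and 0.72 and 0.73, over all genes. All points on an axis come from the same pair of groups, and genes are not independent replicates.

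Other genes of the same machinery were counted in the same way. Of 25 assembly and repair factors, 2 were 2-fold lower in IT after 1 week, 3 in IT after 2 weeks and none in SW, and none was higher (over all genes 7.91%, 6.43%, 6.2% and 7.47% were lower in IT after 1 and 2 weeks and in SW after 1 and 2 weeks), with medians of -0.15, -0.17, -0.10 and 0.08 in that order. Counts so near the share of all genes are no result about these factors. PAM68, an assembly factor of photosystem II, was 2-fold higher in SW than in IT in the warm (95.6 against 43.2 FPKM) and after 2 weeks (101 against 40.2 FPKM). The 3 in IT were AT2G31040, TLP18.3 and FTSH1, the last a subunit of the thylakoid protease that clears damaged photosystem II protein, with 137, 56.8 and 67.2 FPKM in IT. Of 20 further isoforms, subunits and thylakoid regulators, 5 were 2-fold lower in IT after 1 week and 4 in each of the other 3 comparisons, none was higher, and the medians were -0.38, -0.58, -0.43 and -0.27. FD1 and PGRL1B were among them, as were Tic62, a thylakoid anchor of FNR, the root-type reductase gene RFNR1, and STN7, the kinase of state transitions. STN7 had 115 FPKM in IT warm and 51.2 FPKM after 1 week, and TAP38 of the same list had 151 and 69.5 FPKM. In the other 3 comparisons neither was 2-fold lower, with log2 ratios from -0.26 to -0.88 for STN7 and from -0.07 to -0.78 for TAP38. Tic62 had 101, 52.0 and 40.8 FPKM in IT and 117, 43.6 and 56.7 FPKM in SW. AT2G26500, the most abundant of that list, had 1689, 2137 and 1925 FPKM in IT and 1641, 2304 and 2425 FPKM in SW. It was above warm in all 4 cold groups but within 2-fold, with log2 ratios of 0.34 and 0.19 in IT and 0.49 and 0.56 in SW.

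The chloroplast NDH complex carries a second route of cyclic flow, and 17 of its nuclear subunits were counted. At least 2-fold lower were none in IT after 1 week, 2 in IT after 2 weeks, and 1 in SW at either time, with medians of -0.52, -0.52, -0.35 and -0.18 in that order. With 7.91%, 6.43%, 6.2% and 7.47% of all genes 2-fold lower, counts this small are no result about the complex. PnsB1 was lower at 3 of these points, with 212, 111 and 101 FPKM in IT and 168, 62.0 and 77.5 FPKM in SW. PnsB2 was the other of the 2 in IT, with 159, 87.7 and 76.0 FPKM. PnsL3 was 2-fold higher in IT after 1 week, at 74.7 FPKM from 29.6 warm. Of 7 transcriptional regulators of photosynthesis genes, 1 was 2-fold lower in each comparison and none was higher. That was SIGE, a chloroplast sigma factor, in IT after 1 week (70.2 to 23.9 FPKM). In the 3 others it was GLK2, a factor known to activate nuclear photosynthesis genes. GLK2 had 102, 62.8 and 41.9 FPKM in IT and 146, 63.5 and 59.3 FPKM in SW. Above warm were 5 and 2 of the 7 in IT and 2 and 1 in SW, after 1 and 2 weeks. The medians were 0.08 and -0.06 in IT and -0.48 and -0.41 in SW. A count of 1 in 7 is no result about these regulators. GPRI1, the most abundant of them within 2-fold, had 129, 142 and 102 FPKM in IT and 145.5, 128 and 81.4 FPKM in SW. HY5 stood above warm in each cold group, with log2 ratios of 0.42 and 0.93 in IT and 0.18 and 0.83 in SW.

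A set of 5 short motifs were searched in the 250 bases upstream of the start of each of the 32 genes and of 26689 genes in all, on both strands. The G-box (CACGTG) was found in 6 of 32 (18.8%), against 6.58% of all genes and 9.07% of genes of at least 100 FPKM. These were PSAE2, PSAH2, PSBQ1, PSBQ2, PSBTN and ATPD. All of these but PSBQ2 have part of a neighbouring gene in the window, as do 17 of the 32 genes in all, a share not counted over all genes. The I-box (GATAAG) was found in 8 of 32 (25.0%), against 12.2% and 14.9%, in PSAD1, PSAF, PSAH2, PSAK, PSBQ2, PETC, PETE2 and FNR1. CCAATC, a box bound by GLK factors, was found in 4 of 32 (12.5%), against 10.2% and 12.0%. The evening element (AAATATCT) was found in 1 (3.13%), against 4.84% and 7.95%, and the core of the CBF-bound element (CCGAC) in 1, PGR5, against 11.9% and 13.6%. In the pairs printed above, PSAD1 has an I-box where PSAD2 has none of the 5 motifs, and PSAE2 has a G-box where PSAE1 has none of them. PSAH2, whose share of its pair was smaller in the cold, has a G-box and an I-box where PSAH1 has none of the 5. FD2 has none of them either. A match describes letters and is not a site of binding. The shares of genes with a motif were not tested, nor was any link of motifs to the shares of paralogs.

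Reads of close paralogs may have been shared between them. Over aligned coding bases, the pairs were between 74.6% (PETE1 and PETE2) and 88.0% (PSAD1 and PSAD2) identical in the reference genome, with identical runs of at most 38 bases. Of the 32 genes, 10 overlap another annotated gene. PSAD2 overlaps AT1G03140 on the same strand by 2 bases, and that gene reached at most 11.8% of its level. AT4G28755 overlaps PSAE1 by 436 bases and AT1G55673 overlaps PSAG by 479 bases, both on the opposite strand, and no value of either was used here.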

How the data were processed

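RNA sequencing of whole aerial parts covered 18 samples in 6 groups of 3, grouped by the titles. The deposited table gives FPKM that the authors combined over libraries, per the file headers 1 value per gene in each group. The way of combining, and the use of strand in counting, were not given in the sources. Per the submitters' processing notes the tools were TopHat 1.4.1, Cufflinks 2.1.1 and Cuffdiff on the build TAIR10. The depth of each sample is unknown.

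Values were used as deposited. Genes with at least 1 FPKM in at least 1 group were kept, an exact 0 was treated as missing, and ratios were log2((a + 1)/(b + 1)) with a limit of 2-fold in either direction. The design planned no test for a table of this kind, and none was made. Ratios and counts were recomputed under 8 alternatives. The ratio script was tested on simulated data. Scripts ran in Python 3.11.15 with pandas 2.3.3, NumPy 2.4.6, Biopython 1.88 and matplotlib 3.10.9. Names, coordinates and promoters came from the RefSeq annotation of TAIR10.1, matched by locus (97.8% of loci). All 32 members were named. From the 4 gene lists beside them, the rule was the 3 largest ratios among genes at 2-fold or more and the most abundant gene within 2-fold, and some of these are not printed. The members, lists and motifs were chosen with earlier results of these data known, and the FD1 and PGRL1B pairs and the list genes shown for other reasons after their values were seen.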

Additional observations from a re-analysis of the deposited data

Results flagged for a closer look

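From 1 to 2 weeks of cold, 26 of the 32 transcripts were lower in IT and higher in SW, which is a difference in direction between the ecotypes under the same comparison. The values are 1 per group, so the difference was not tested. Of all genes 21.2%, and of genes of at least 100 FPKM 33.9%, showed the same pair of directions.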

How the results depend on the processing

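With no replicate values, leaving out each replicate could not be done. No paired analysis was possible because the columns carry no replicate. All 32 members exceed 100 FPKM in some group and code for protein, so filters of 5 and 100 FPKM, no filter, or protein-coding genes alone could not change their counts and medians. The filter of 100 FPKM changes the genes they are set beside: the members' median minus that of all genes went from -0.20 to -0.05 in IT from 1 to 2 weeks, from 0.10 to -0.06 for SW against IT in the warm, and from -0.03 to 0.13 for the difference of 1 week responses. A pseudocount of 0.1 left the members' counts and medians within 1.5-fold. The scalings did not. The number of members 2-fold lower in IT after 1 week went from 8 to 15 (upper quartile and reference genes) and 19 (nuclear sum). In SW after 1 week it went from 7 to 13 (upper quartile), 17 (reference genes) and 14 (nuclear sum), and in SW after 2 weeks from 3 to 10 under both of the latter. The median of SW against IT after 1 week went from 0.08 to -0.023 (reference genes), that in the warm from 0.12 to -0.010 and that of the difference of 1 week responses from -0.02 to 0.12 (both nuclear sum). The all-gene median log2 ratio moved by over 0.1 in the following. By the nuclear sum it came to -0.25 and -0.08 in IT and -0.10 and -0.15 in SW after 1 and 2 weeks, 0.13 in IT from 1 to 2 weeks, -0.09 and -0.13 for SW against IT in the warm and after 2 weeks, and 0.13 for the difference of 1 week responses. By the reference genes it came to -0.14 in IT after 2 weeks, and -0.14 and -0.22 in SW after 1 and 2 weeks. The signs of members' ratios were kept under all scalings for SW against IT after 2 weeks and for IT after 1 week, and changed for 14 members in the difference of 1 week responses, 11 for SW against IT in the warm, 8 for IT from 1 to 2 weeks, 6 for SW against IT after 1 week, and 4 or fewer in each other comparison. Depth is unknown, so no limit of detection can be given.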
